A study of Mus musculus with 30 samples.

Results

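Platelets carry their messages, proteins and a ring of microtubules from the megakaryocytes of the bone marrow that shed them, and they contain RNA although they have no nucleus. Their alpha granules store chemokines, adhesive proteins and clotting factors, which are released when platelets are activated, and platelets are trapped in the vessels of injured lungs. The 8 genes described here encode such cargo or its scaffold: the chemokines Pf4 and Ppbp, the tubulin Tubb1, the adhesive proteins Vwf and Thbs1, the coagulation factor F5, the chaperone clusterin (Clu) and the matrix protein osteonectin (Sparc). Several of them are not made by megakaryocytes alone: endothelium makes Vwf, monocytes make Thbs1, liver makes F5, and stromal cells make Sparc. Every non-control probe whose gene name on the array was one of the 8 symbols, current or older, was taken. This gave 11 probes for 8 genes, of 55681 probes for 34787 genes on the array. Of the 11, 10 were well above background on at least 3 of 30 arrays, as were 35800 probes of the array in all.

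Transcripts were measured in peripheral blood mononuclear cells, prepared on Ficoll from EDTA blood of female C57BL/6 mice aged 6 weeks that had been anesthetised with xylazine and ketamine. OA mice had received oleic acid, a fatty acid that injures the lung, at 1.2 µl/g in a tail vein, and serum mice physiological serum by the same route. OA groups held 3, 3, 3, 2, 3 and 3 arrays at 1, 1.5, 3, 4, 18 and 24 h, against 3, 3, 2, 1, 2 and 2 arrays of serum mice, 17 against 13 in all. Each array was taken as 1 animal, and p-values measure the spread between these arrays. Oleic acid injury is a model of one route to lung injury, and cells of the blood fraction, not of the lung, were measured.

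Levels are log2 of the processed signal minus the array's 75th percentile, so a level of 0 is that percentile, and each probe is compared only with itself. Differences are OA minus serum with the standard error (SE) of a limma model of all 12 groups, in which the single serum array at 4 h is assumed to vary like the rest. On single arrays 34.5% to 64.4% of probes passed background, and the 75th percentile of the signal lay between 40.0 and 150.4. The arrays came from 5 slides, of which slide 5 held OA arrays only. Slide 5 was also the only slide scanned on day 2, and the others were scanned on day 1. Of the arrays, 3 had a median correlation with the others below 0.9 over the genes tested: OA 4 h replicate 2, serum 1.5 h replicate 3 and serum 24 h replicate 1. This cut-off, and the fit without these arrays, were chosen after the values were seen. Results of the comparisons that hold them (1.5, 4 and 24 h, the mean of 6 times and the contrasts between times) are also given without them. Signal of intergenic transcripts, relative to probes detected on every array, also differed between groups. It averaged -5.23 in OA and -4.67 in serum mice at 1 h. It averaged -5.39 in OA and -4.75 in serum mice at 1.5 h, and -5.19 in OA and -4.67 in serum mice at 3 h. At 4 h the order was reversed, at -3.91 in OA mice and -5.30 in the serum mouse. At 18 h it averaged -5.18 in OA and -5.04 in serum mice, and at 24 h -5.52 in OA and -3.63 in serum mice. Its part in the differences below was not tested beyond a fit that takes it as a covariate, whose values are given beside them.

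RefSeq promoter windows of GRCm38.p6, 250 bases up to the transcription start, were found for 5 of the 8 genes and are shown because 4 of these genes varied together across arrays while Sparc did not. Each is written on the gene's strand, 5′ to 3′, with capitals marking GGAAG, the core that ETS factors such as Fli1 bind, or its reverse complement CTTCC.
Pf4 (plus strand, chr5:90772185-90772434): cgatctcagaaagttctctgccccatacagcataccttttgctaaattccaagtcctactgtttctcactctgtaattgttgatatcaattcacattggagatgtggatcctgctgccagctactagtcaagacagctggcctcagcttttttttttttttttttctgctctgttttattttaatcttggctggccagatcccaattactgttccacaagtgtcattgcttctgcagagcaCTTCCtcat
Ppbp (plus strand, chr5:90768268-90768517): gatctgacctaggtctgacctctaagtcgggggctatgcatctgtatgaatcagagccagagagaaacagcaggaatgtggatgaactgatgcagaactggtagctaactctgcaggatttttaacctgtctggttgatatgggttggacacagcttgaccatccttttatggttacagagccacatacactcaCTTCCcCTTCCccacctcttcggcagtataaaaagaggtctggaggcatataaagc
Tubb1 (plus strand, chr2:174450345-174450594): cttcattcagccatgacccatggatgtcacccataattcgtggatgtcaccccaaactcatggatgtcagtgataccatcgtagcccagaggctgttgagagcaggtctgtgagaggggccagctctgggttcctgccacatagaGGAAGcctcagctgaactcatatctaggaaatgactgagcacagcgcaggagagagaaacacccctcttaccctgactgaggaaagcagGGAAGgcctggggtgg
F5 (plus strand, chr1:164151585-164151834): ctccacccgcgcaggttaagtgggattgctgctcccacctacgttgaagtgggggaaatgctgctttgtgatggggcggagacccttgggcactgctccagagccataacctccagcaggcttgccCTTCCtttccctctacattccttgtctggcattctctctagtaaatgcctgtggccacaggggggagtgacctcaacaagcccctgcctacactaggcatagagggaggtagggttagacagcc
Sparc (minus strand, chr11:55420081-55420330): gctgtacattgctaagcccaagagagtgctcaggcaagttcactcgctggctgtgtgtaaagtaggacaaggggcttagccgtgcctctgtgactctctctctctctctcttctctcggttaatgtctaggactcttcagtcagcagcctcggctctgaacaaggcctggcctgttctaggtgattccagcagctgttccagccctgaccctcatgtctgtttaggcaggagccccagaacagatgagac
GGAAG on either strand was present in the windows of Pf4, Ppbp, Tubb1 and F5 and not in that of Sparc, against 64.1% of 32851 windows of all genes. Ppbp had 2 matches, 56 and 50 bases upstream of the start, Tubb1 had 2 at 105 and 16 bases, Pf4 had 1 at 9 bases and F5 had 1 at 124 bases. GATAA, a sequence that GATA factors bind, was in none of these 5 windows on either strand and in 22.6% of all windows, and TGAGTCA, an AP-1 type sequence, was in none of the 5 and in 4.46% of all. A match of letters is a description and no site of binding.

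Probe positions are those of the array files in mm9, which name the gene but not the exon. The Pf4 probe lies at chr5:91202275-91202334 and the Ppbp probe at chr5:91198970-91199029. The other probes used lie at chr2:174283277-174283336 (Tubb1), chr6:125636551-125636610 (Vwf), chr2:117952585-117952644 (Thbs1), chr1:166150216-166150275 (F5), chr14:66600325-66600382 (Clu) and chr11:55208939-55208998 (Sparc). These were well above background on all 30 arrays, Ppbp on the 29 where its spot was not marked as an outlier. Second probes existed for Vwf, F5 and Sparc, and that of Sparc was detected on 2 arrays only and was not tested.

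At 1.5 h, 7 of the 8 genes were 1.63 to 2.05 log2 units higher in OA than in serum mice, which is 3.09- to 4.13-fold, and Sparc was not. No gene of the array passed limma's adjusted threshold at this time (0% of 25169 genes), so none of these differences is called. Pf4, a chemokine that binds heparin, stood at 8.78, 9.88 and 8.90 in OA mice and at 7.71, 7.59 and 6.96 in serum mice, a difference of 1.77 (SE 0.60). Ppbp, the precursor of the neutrophil-attracting chemokine that platelets release, stood at 7.41, 9.24 and 7.83 in OA mice and at 6.97, 6.64 and 5.86 in serum mice, a difference of 1.67 (SE 0.61). Every OA array was above every serum array for both chemokines. In bulk samples a difference in the number of platelets and a difference in RNA per platelet cannot be told apart.

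Tubb1, the beta tubulin of the platelet's marginal band, was at 2.81, 5.17 and 2.94 in OA mice and at 3.06, 1.26 and 0.94 in serum mice, a difference of 1.89 (SE 0.72). Its groups overlapped, since serum replicate 1 lay above OA replicates 1 and 3. Vwf, which tethers platelets to exposed collagen, was at 7.03, 8.33 and 7.09 in OA mice and at 6.20, 5.59 and 4.71 in serum mice, a difference of 1.98 (SE 0.62). Thbs1, a matrix protein released from alpha granules, was at 4.22, 5.98 and 4.21 in OA mice and at 3.20, 2.54 and 2.52 in serum mice, a difference of 2.05 (SE 0.62). Both groups of arrays were apart for these adhesive proteins, with OA replicate 2 the highest array.

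F5, the cofactor that speeds thrombin formation, was at 3.58, 5.28 and 3.98 in OA mice and at 2.92, 2.89 and 2.15 in serum mice, a difference of 1.63 (SE 0.62). Clu, a secreted chaperone, was at 7.93, 9.26 and 8.21 in OA mice and at 7.16, 6.83 and 5.92 in serum mice, a difference of 1.84 (SE 0.62). The OA arrays of these genes again lay above all serum arrays. Sparc, a collagen-binding matrix protein, was at 1.04, 0.17 and -0.27 in OA mice and at 0.79, 0.74 and -0.02 in serum mice, a difference of -0.19 (SE 0.53), and its groups overlapped.

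At 1.5 h 6 members had every OA array above every serum array (Tubb1 and Sparc did not), against 16.8% of genes. limma's adjusted p was 0.473 for 7 members and 0.856 for Sparc. All 7 had an unadjusted p under 0.05, from 0.00331 to 0.0164, while 4% of genes were higher at that p. The median difference was 1.80 over the members and 0.05 over all genes, and 7 members lay above 0, as did 52.5% of genes. The count at the unadjusted threshold was 4 when OA replicate 2 or serum replicate 3 was left out. It was also 4 with the intergenic covariate (2.42% of genes), where the members' median was 1.2. Without the 3 arrays that stand apart, 5 members passed this threshold (2.97% of genes) and the median was 1.48. The 7 members also differed in the same direction within slides 3 and 4. These pairs hold OA replicate 2 (slide 3) and serum replicate 3 (slide 4), whose removal lowered the count, so they add no separate support. On slide 3 the members ran from -0.57 (Sparc) to 3.91 (Tubb1), and on slide 4 from -0.25 (Sparc) to 2.38 (Vwf), with 1 array of each treatment a slide. The second probes of F5 and Vwf differed by 1.72 (SE 0.65) and 1.25 (SE 0.46).

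**Figure D1:**
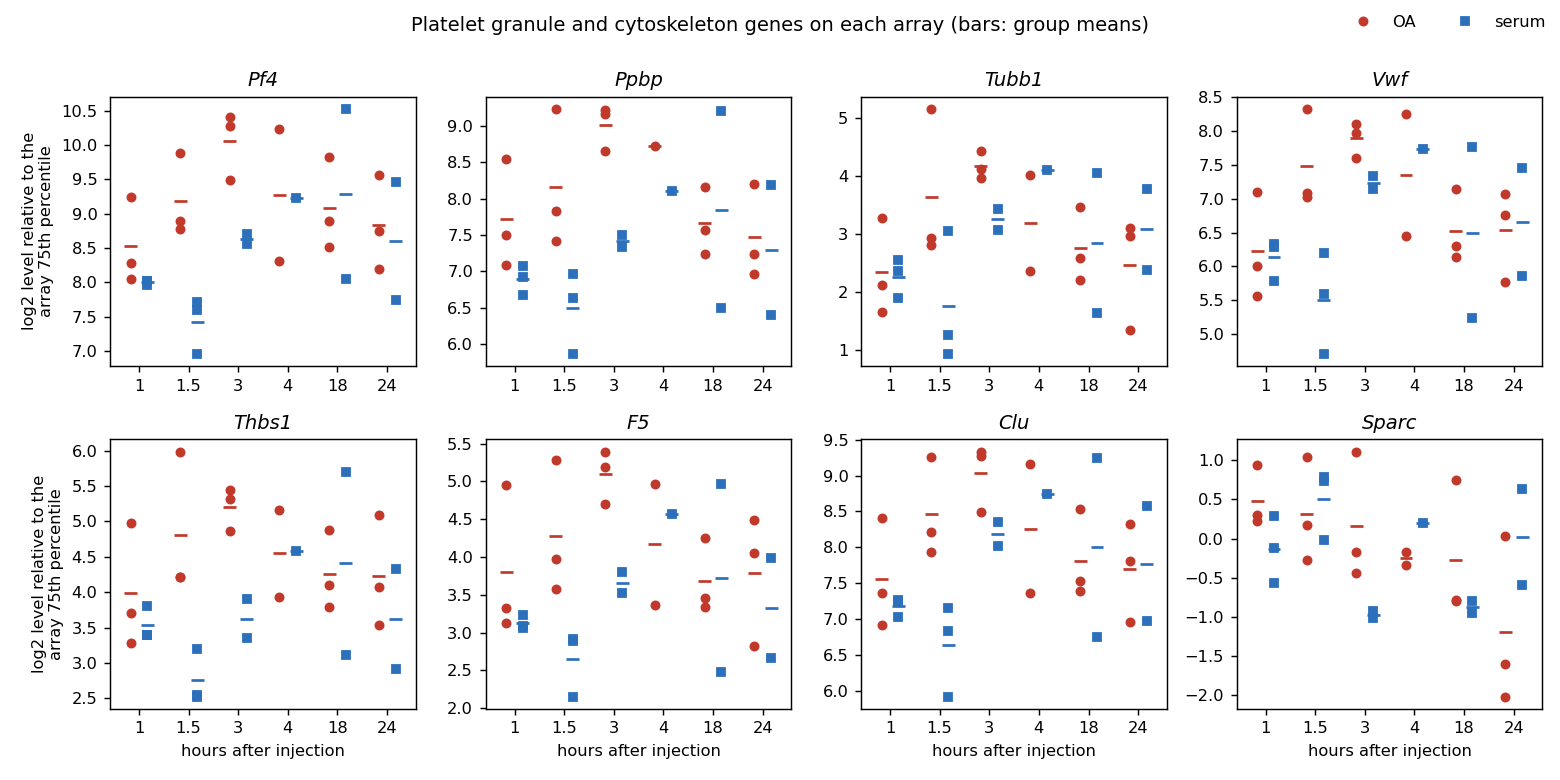
Level of each member on every array, as log2 signal relative to the array's 75th percentile, by time after injection in hours, with OA arrays left of serum arrays and bars for group means. At 3 h the OA arrays lie above the serum arrays for all 8 members, and at 1.5 h for 6.

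Markers of other cell types were set beside the members at 1.5 h, and 0 of them passed limma's adjusted threshold (0% of genes). The 6 platelet receptor genes of the marker list, none of them a member, had a summed linear level of 324 to 1042 in OA and 84.4 to 205 in serum mice. Endothelial markers, a possible source of Vwf, summed to 26.5 to 50.6 in OA and 43.6 to 88.7 in serum mice. Most of that sum was Kdr, with a mean level of 5.58 against 0.49 for Plvap and -2.64 or lower for the others. Of 6 measured, 2 were above 0, both at an unadjusted p under 0.05, and the median difference was -0.43. Of the 11 on that list Kdr and Plvap were well above background on 30 arrays, Ramp2 on 12, Egfl7 on 11, Tek and Tie1 on 4, Cldn5 on 1, and Cdh5, Emcn, Robo4 and Sox17 on 0. Fibroblast markers, a possible source of Sparc, had 0 of 4 above 0 and a median of -0.48. Of the 7 on that list Col1a2 was well above background on 29 arrays, Dcn on 20, Col1a1 on 13, Col3a1 on 9, and Lum, Postn and Pdgfra on 0. Erythroid markers summed to 3102 to 5276 in OA and 6222 to 9263 in serum mice, with 0 of 7 above 0. Hepatocyte markers, a possible source of F5, had 0 of 4 measured above 0 (median -0.96), at mean levels of -1.82 or lower. Monocyte markers, a possible source of Thbs1, had 9 of 10 above 0 (median 0.43), and B cell markers 7 of 7 (median 0.66). Monocyte markers summed to 415 to 560 in OA and 317 to 367 in serum mice. B cell markers summed to 497 to 675 in OA and 297 to 443 in serum mice. The sums of platelet, monocyte and B cell markers were thus higher in OA mice without overlap, and that of erythroid markers lower without overlap. The part of these cell types in the members' differences was not tested.

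At 3 h all 8 members, Sparc included, had every OA array above every serum array, against 16.7% of genes. Pf4 stood at 9.50, 10.28 and 10.40 in OA mice and at 8.56 and 8.70 in serum mice, a difference of 1.43 (SE 0.67) or 2.69-fold. Ppbp stood at 8.66, 9.23 and 9.16 in OA mice and at 7.50 and 7.33 in serum mice, a difference of 1.60 (SE 0.68) or 3.03-fold. Both chemokines had their highest group mean of all 12 groups here, in OA mice.

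Tubb1 was at 4.44, 4.13 and 3.97 in OA mice and at 3.44 and 3.08 in serum mice, a difference of 0.92 (SE 0.81). Vwf was at 7.61, 8.11 and 7.97 in OA mice and at 7.14 and 7.34 in serum mice, a difference of 0.66 (SE 0.69). Thbs1 was at 4.86, 5.45 and 5.31 in OA mice and at 3.91 and 3.35 in serum mice, a difference of 1.58 (SE 0.69). Vwf, with the smallest difference of the 8, still had its OA arrays above both serum arrays.

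F5 was at 4.70, 5.19 and 5.39 in OA mice and at 3.52 and 3.80 in serum mice, a difference of 1.44 (SE 0.70). Clu was at 8.49, 9.33 and 9.28 in OA mice and at 8.01 and 8.35 in serum mice, a difference of 0.85 (SE 0.69). Sparc was at -0.44, -0.18 and 1.11 in OA mice and at -1.01 and -0.93 in serum mice, a difference of 1.14 (SE 0.59). The difference of Sparc was 0.66 without OA replicate 3 and 0.49 with normexp background correction. Whether it changed between times is given by the F tests below, which Sparc did not pass.

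None of the 8 members passed limma's adjusted threshold at 3 h (0% of genes), with adjusted p from 0.613 to 0.801. Their median difference was 1.28, against 0.09 over all genes, and 56.1% of genes lay above 0. At the unadjusted threshold 3 members were higher, against 4.57% of genes (5.47% with the intergenic covariate). That count was 0 with the intergenic covariate (median 0.94), without the slide of OA arrays only, or without serum replicate 2, OA replicate 2 or OA replicate 3. It was 1 without serum replicate 1 and 5 without OA replicate 1. Within slide 1, 1 OA and 1 serum array differed by 0.75 to 2.10, above 0 for all 8 members. The second probes of F5 and Vwf differed by 1.21 (SE 0.73) and 1.09 (SE 0.51).

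Markers of other cell types also lay higher or lower at 3 h, with 0 called by limma (0% of genes). Monocyte markers had 10 of 10 above 0 (median 0.92, 3 at an unadjusted p under 0.05) and summed to 280 to 437 in OA and 219 to 261 in serum mice. Fibroblast markers had 3 of 4 above 0 (median 0.84) and summed to 1.12 to 2.59 in OA and 0.893 to 1.08 in serum mice. Hepatocyte markers had 1 of 4 above 0 (median -0.67). Endothelial markers had 4 of 6 above 0 (median 0.90), while their sum, mostly Kdr, was 28.8 to 77.9 in OA and 52.2 to 102 in serum mice. The sums of monocyte and fibroblast markers did not overlap between treatments. Those of the 6 platelet markers did not either, at 668 to 1000 in OA and 361 to 411 in serum mice. All 8 members were likewise apart, so the separation singles out no cell type. The part of these cell types in the members' differences was not tested.

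**Figure D2:**
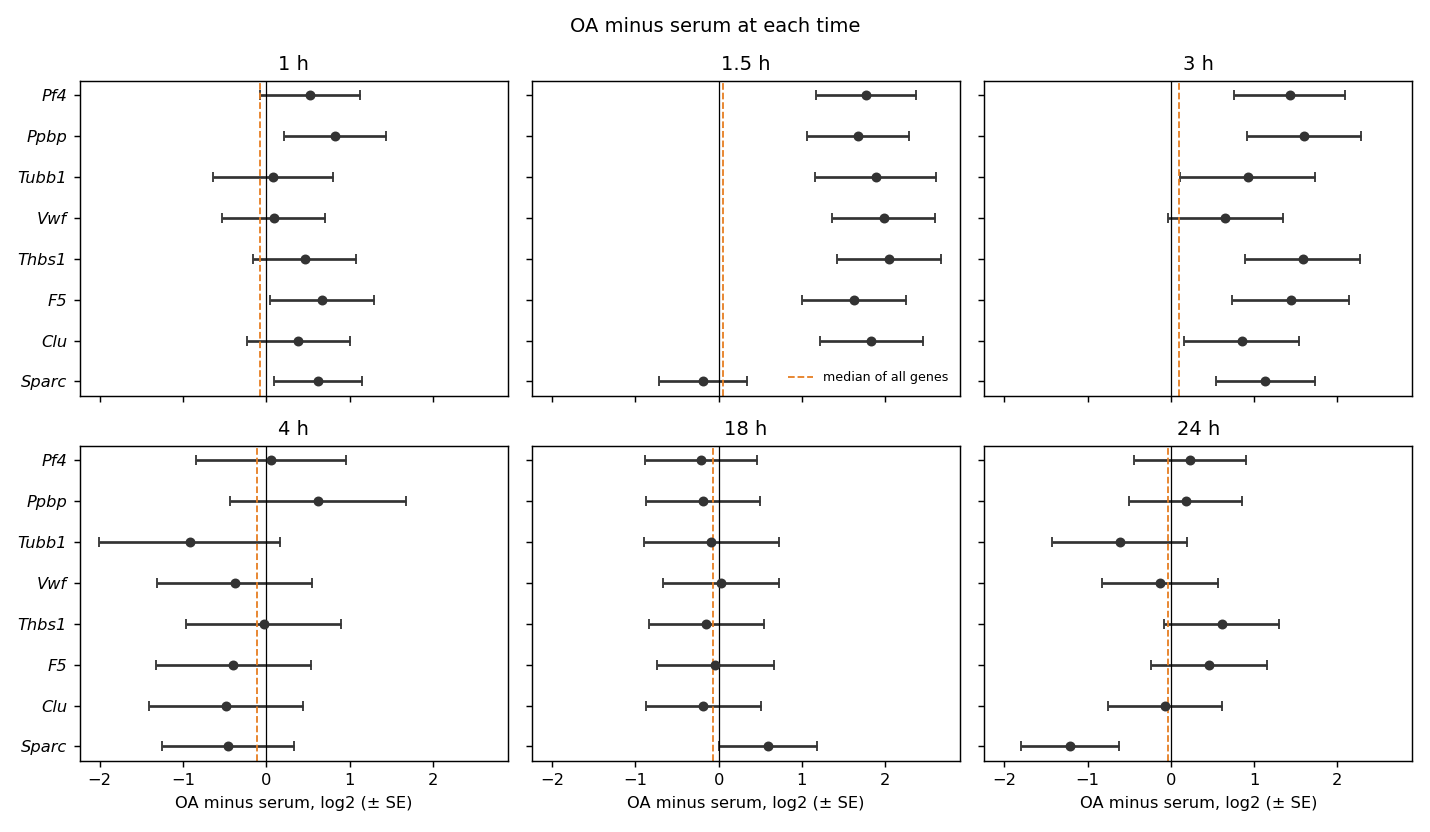
Difference of OA minus serum in log2 for each member at each time in hours, with bars of 1 SE from the limma model. The members other than Sparc lie between 1.63 and 2.05 at 1.5 h and between 0.66 and 1.60 at 3 h.

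At 1 h the members differed little. Pf4 was at 8.28, 9.24 and 8.05 in OA mice and at 7.95, 8.02 and 8.02 in serum mice, and Ppbp at 7.51, 8.54 and 7.09 against 6.67, 6.92 and 7.08. These 2 members had every OA array above every serum array, against 3.07% of genes, and 4 did so without OA replicate 1 (17.4% of genes) or serum replicate 3 (21.3% of genes). Vwf was at 6.00, 7.10 and 5.57 in OA mice and at 6.28, 6.34 and 5.79 in serum mice. F5 was at 3.13, 4.95 and 3.32 in OA mice and at 3.09, 3.06 and 3.24 in serum mice. The other members overlapped too, as did these, OA replicate 2 being the highest array for each of them. The median difference was 0.49 over the members and -0.08 over all genes, all 8 lay above 0 (45% of genes did), and no gene passed limma's adjusted threshold (0%). At an unadjusted p under 0.05, 0 members and 5.32% of genes passed. With the intergenic covariate the median was -0.01, and within slide 1 the members ran from -0.04 to 0.63.

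At 4 h the 2 OA arrays disagreed. Pf4 was at 10.24 and 8.31 in OA mice and at 9.22 in the serum mouse. Vwf was at 8.26 and 6.45 in OA mice and at 7.73 in the serum mouse, and Clu at 9.17 and 7.36 against 8.74. OA replicate 2, one of the arrays that stand apart, was below the serum array for the 7 members it measured. The median difference was -0.39, against -0.11 over all genes, but 0.12 after quantile normalization, 0.13 when scaled to probes detected on every array, 0.47 without the arrays apart and 0.88 with the intergenic covariate. Ppbp had its single remaining OA array, at 8.72, above serum at 8.10 (33.4% of genes had no overlap in that direction). Within slide 3, OA replicate 2 lay below the serum array by values from -1.75 (Tubb1) to -0.54 (Sparc). Without OA replicate 2, 6 of 8 members had the OA array above the serum array, as did 50.1% of genes, and without OA replicate 1, 0 of 7 did, against 43.9% of genes. Monocyte markers had 0 of 10 above 0 (median -1.69), erythroid markers 7 of 7 (median 1.63) and hepatocyte markers 4 of 4 (median 1.68). The part of these cell types was not tested. Tubb1 and Sparc had both OA arrays below the serum array (38.8% of genes). No member passed limma's adjusted threshold (0% of genes) and 0 had an unadjusted p under 0.05 (10.2% of genes).

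At 18 h the 2 serum arrays differed widely. Pf4 was at 8.89, 9.82 and 8.51 in OA mice and at 8.05 and 10.53 in serum mice. Ppbp was at 7.57, 8.17 and 7.25 in OA mice and at 6.49 and 9.20 in serum mice. Serum replicate 2 was the highest of the 5 arrays for both. Vwf was at 6.14, 7.14 and 6.30 in OA mice and at 5.23 and 7.76 in serum mice. Thbs1 was at 4.11, 4.88 and 3.79 in OA mice and at 3.11 and 5.70 in serum mice. The OA arrays lay between the serum arrays for these genes, and the serum 18 h group had the largest SD of all groups for 7 members, 1.71 to 1.92. Only Sparc had its groups apart (2.74% of genes), at -0.79, 0.75 and -0.79 in OA mice and at -0.94 and -0.80 in serum mice, so that the nearest arrays almost met. Within slide 2, which held 1 array of each treatment, the members ran from -1.04 to 1.54, with Sparc alone above 0. Without serum replicate 2, all 8 members had every OA array above the remaining serum array (15% of genes). Without serum replicate 1, the 7 members other than Sparc had every OA array below it (18.9% of genes). The median difference was -0.12, against -0.06 over all genes, -0.25 with the intergenic covariate, and between -1.36 and 1.13 when 1 array was left out. No member passed limma's adjusted threshold (0% of genes), and 0 had an unadjusted p under 0.05 (0.989% of genes).

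At 24 h Pf4 was at 8.74, 9.56 and 8.19 in OA mice and at 7.75 and 9.45 in serum mice, and Sparc at -2.02, 0.03 and -1.60 against 0.63 and -0.60. The groups of Pf4 overlapped, as did those of all other members, while 25.4% of genes had OA arrays above serum arrays without overlap. The Sparc difference was -1.21 (SE 0.59, limma's adjusted p = 0.113), and -0.60 (adjusted p = 0.766) without the arrays apart. It was -1.83 (limma's adjusted p = 0.0437) without OA replicate 2. It was -1.82 without serum replicate 2, which leaves serum replicate 1, an array that stands apart, as the only serum array. Vwf was at 6.75, 7.07 and 5.77 in OA mice and at 5.86 and 7.46 in serum mice. None of the 8 members was called by limma at a time when 30.1% of genes were, and 0 had an unadjusted p under 0.05, as 46.3% of genes did. The second Vwf probe, tested among 35800 probes, was lower in OA mice by limma, at -1.41 (SE 0.51, adjusted p = 0.0458), where the Vwf probe used for the gene was at -0.13 (SE 0.69, adjusted p = 0.895). Serum 24 h replicate 1 stands apart, and the fit without the 3 arrays apart leaves 1 serum array at 24 h. How the calls over all genes at this time depended on the processing is given at the end. The members' median was 0.05, against -0.04 over all genes, with 0.48 after normexp background correction, -0.56 after quantile normalization, -0.68 without the arrays apart and -1.55 with the intergenic covariate. Leaving out 1 array gave -0.68 to 0.90. Endothelial markers, a possible source of Vwf, had 1 of 6 above 0 at 24 h (median -1.50). Of these, Tek and Ramp2, at mean levels of -3.90 and -2.64, were called lower. Monocyte markers had 10 of 10 above 0 (median 1.94, 5 called) and B cell markers 7 of 7 (median 1.06, 3 called), where 30.1% of genes were called. The part of these cell types was not tested. No slide held both treatments at this time, so slide and treatment cannot be told apart.

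Averaged over the 6 times, differences were 0.63 (SE 0.28) for Pf4, 0.78 (SE 0.30) for Ppbp, 0.75 (SE 0.29) for Thbs1 and 0.63 (SE 0.29) for F5. Those of Clu, Vwf and Tubb1 were 0.39, 0.37 and 0.21, each with an SE of 0.29 to 0.34, and Tubb1 was at -0.19 with the intergenic covariate. Sparc was at 0.08 (SE 0.25), and below 0 with normexp background correction and with the authors' deposited values. None passed limma's adjusted threshold (0.00398% of genes did), with adjusted p from 0.304 to 0.868. At the unadjusted threshold 4 members were higher, against 6.67% of genes, and 0 with the intergenic covariate (2.09% of genes). With that covariate the median was 0.15 in place of 0.51. Leaving out 1 array gave 1 to 6 members. Without the arrays apart 2 members passed it (5.96% of genes).

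Levels were also compared between times over both treatments. The means at 3 and 4 h were 10.06 and 9.27 in OA and 8.63 and 9.22 in serum mice for Pf4, against 8.52 and 9.19 in OA and 8.0 and 7.42 in serum mice at 1 and 1.5 h. The contrast of 3 and 4 h minus 1 and 1.5 h over both treatments was 1.22 (SE 0.36) for Vwf, 1.18 (SE 0.42) for Tubb1, 1.09 (SE 0.36) for Clu, 1.01 (SE 0.35) for Pf4, 1.00 (SE 0.38) for Ppbp, 0.91 (SE 0.37) for F5 and 0.72 (SE 0.36) for Thbs1. Sparc ran the other way, at -0.51 (SE 0.31). No member passed the adjusted threshold (0.29% of genes did), with limma's adjusted p from 0.135 to 0.561. At the unadjusted threshold 6 members were higher, against 6.32% of genes, and 1 with the replicate number as a block (2.53% of genes). Without the arrays apart 7 members passed the unadjusted threshold (7.07% of genes) and 0.191% of genes the adjusted one. With the intergenic covariate 5 members passed the adjusted threshold, as did 2.93% of genes in that fit, and the members' median was 1.19. B cell markers ran the other way, with 7 of 7 lower at an unadjusted p under 0.05 (median -0.69), of which Ms4a1 fell by 1.38 (adjusted p = 0.019). Fibroblast markers had 0 of 4 above 0 (median -0.76). Their part in the members' values was not tested.

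For the 7 members other than Sparc, the OA 3 h group had the highest mean of the 12 groups and the serum 1.5 h group the lowest. The lowest single array was serum 1.5 h replicate 3 for all 7. Neighbours in this order mostly overlapped, in 9 to 11 of 11 pairs. The single arrays of a gene spanned 3.24 to 4.23 log2 units. Sparc had its highest group mean in serum mice at 1.5 h (0.50) and its lowest in OA mice at 24 h (-1.2). The mean at 18 and 24 h minus that at 1 to 4 h differed by -0.62 (SE 0.26) for Sparc, with an adjusted p of 0.413 by limma. That contrast called 0.763% of genes and 0 members, and at the unadjusted threshold 9.27% of genes and 1 member (Sparc). The 4 fibroblast markers measured were also lower at the unadjusted threshold (median -1.09), and their part in the Sparc difference was not tested. Without the arrays apart Sparc was at -0.82 (adjusted p = 0.262). No F test of a change of the OA effect between times, or of the OA or serum groups between times, passed for a member (lowest adjusted p 0.287). For the OA effect, the OA groups and the serum groups these tests called 0.00795%, 0.115% and 0.0596% of genes, and at the unadjusted threshold 16.5%, 18% and 13.2% of genes and 0 members.

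The members other than Sparc varied together from array to array. Over the arrays Pf4 correlated with Ppbp at r = 0.96, with Clu at 0.96, with Thbs1 at 0.95, with F5 at 0.94, with Vwf at 0.90 and with Tubb1 at 0.85. Spearman's rho was 0.95, 0.94, 0.95, 0.95, 0.88 and 0.84 for the same genes. Each permutation p was 1e-05, the smallest that 100000 permutations can give, or 1.17e-05 after Benjamini-Hochberg adjustment over 7 genes. Leaving out the 2 arrays farthest from the median of Pf4 left r at 0.82 to 0.95, and within groups r was 0.84 to 0.98. Within single slides of 4 to 8 arrays it ran from 0.64 for Tubb1 on slide 2 to 0.999. Pf4 and Sparc had r = 0.03 (permutation p = 0.863), and 0.31 within groups (permutation p = 0.148). The arrays share slides and their 75th percentile scaling, and across all named genes the median r with the members' pattern was 0.133.

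**Figure D3:**
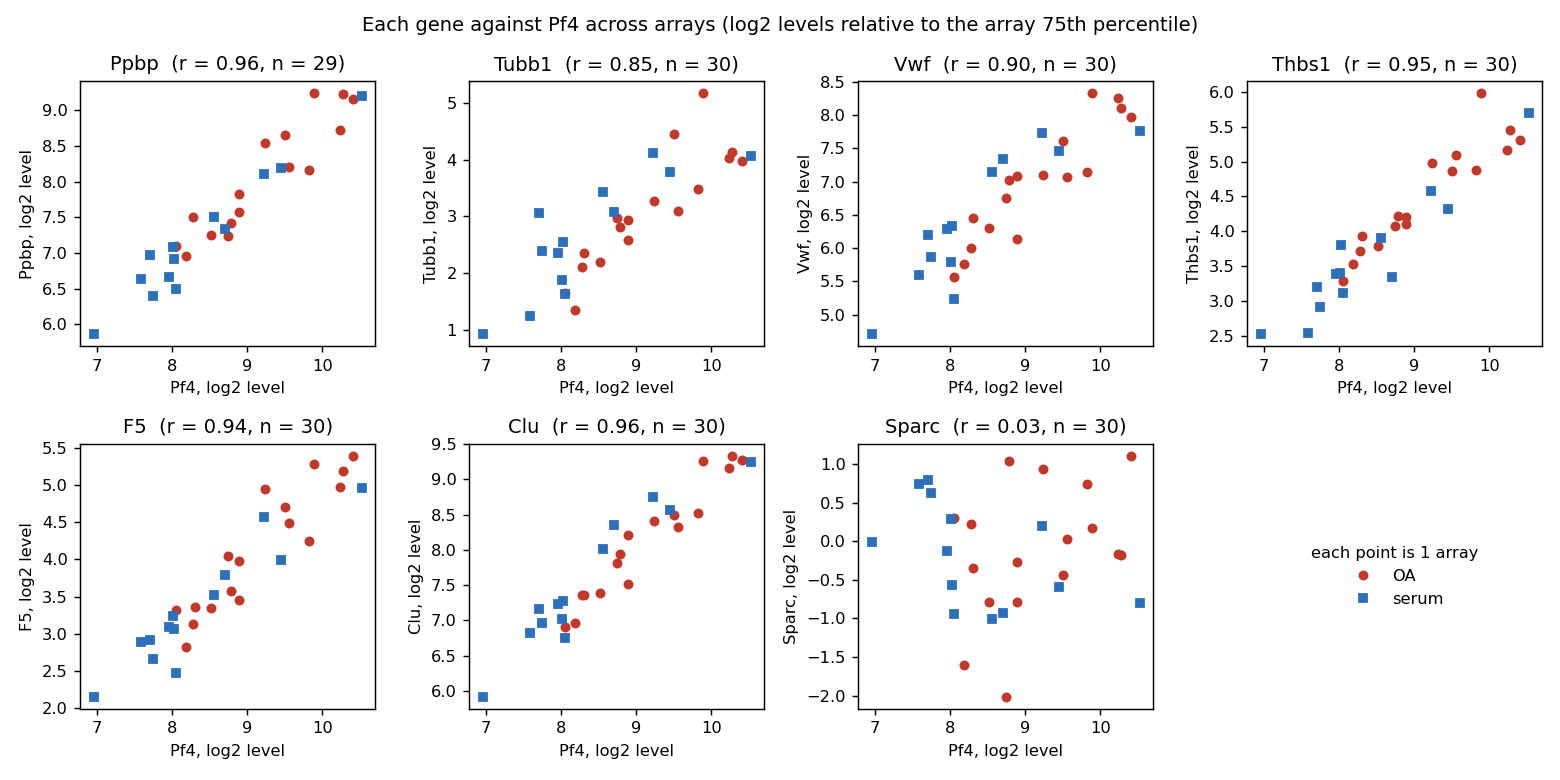
Level of each of the other 7 members against the level of Pf4 on each array, both in log2 relative to the array's 75th percentile, with OA and serum arrays in separate colours. The points of 6 members rise with Pf4 (r = 0.85 to 0.96), and those of Sparc do not (r = 0.03).

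A fit of each gene minus Pf4 on the same array, chosen after the data were seen, compared the members with one another. At 1.5 h the other 6 differed from Pf4 by -0.14 to 0.28 (SE 0.33 to 0.49). Sparc differed by -1.96 (SE 0.70, limma's adjusted p = 0.0471), where 47.7% of genes were called. It was not called without the 3 arrays apart (adjusted p = 0.115), nor in 16 of 30 fits that left out 1 array, whose adjusted p ran from 0.0234 to 0.216. In the time contrast Sparc minus Pf4 was -1.52 (SE 0.41, adjusted p = 0.0102, 39.5% of genes called) and it was called in all 35 alternatives that gave it, with adjusted p from 0.00366 to 0.0438. With such shares of genes called, Sparc is 1 of many genes that differed from Pf4.

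The 5 named genes most like the members, by r with the mean of the members' standardised levels, were Scamp1 (r = 0.98), Gp6, Lgalsl, Cavin2 and Pttg1ip. Of 15875 named genes, 461 (2.9%) had r above 0.8. On deviations from group means they were Cavin2, Alox12, Mapk6, Pros1 and Gp6, and 510 genes (3.21%) had r above 0.8. Gp6, the collagen receptor of platelets, and Cavin2, a protein of caveolae, stand in both rankings. Likeness was measured over 30 arrays for levels and 29 for deviations, and nothing is said of shared function.

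Related genes were listed by role. Of the platelet surface receptors, 17 of 18 measured were above 0 at 1.5 h, with a median of 1.75. At an unadjusted p under 0.05, 15 were higher. Over all genes 52.5% were above 0 at this time, and 4% were higher at that p. Gp1ba, part of the Vwf receptor, differed by 2.00 (SE 0.61), and Itgb3, the beta chain of the fibrinogen receptor, by 1.96 (SE 0.57). P2ry12, the ADP receptor that clopidogrel blocks, differed by 0.75 over the mean of 6 times. Of the other granule genes, 14 of 17 were above 0 with a median of 1.03 and 6 at the unadjusted threshold. Mmrn1, which binds factor V in granules, differed by 2.01 (SE 0.69) and Ltbp1, which holds latent TGF-beta, by 1.82 (SE 0.59).

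All 19 cytoskeleton and integrin signalling genes were above 0 at 1.5 h, with a median of 1.17 and 13 at the unadjusted threshold. Myl9, the myosin light chain, differed by 1.73 (SE 0.57) and Mylk, its kinase, by 1.74 (SE 0.64). Of the megakaryocyte transcription factors 10 of 10 were above 0, with a median of 0.75 and 4 at the unadjusted threshold. Gata1 differed by 1.54 (SE 0.52) and Tal1 by 1.72 (SE 0.67). These medians compare with 0.05 over all genes, of which 52.5% were above 0 and 4% were higher at the unadjusted threshold. At 1.5 h 0 genes of the 4 lists passed limma's adjusted threshold (adjusted p = 0.473 for those named at this time). F13a1, Gsn and Tpm4, named for the mean of 6 times, differed by 0.55, 0.55 and 0.46, and Hhex and Lyl1 by 0.65 and 0.33. The genes named for that mean had adjusted p from 0.299 to 0.351. At 24 h, when 30.1% of genes were called, 4 genes of the lists were called, named here after their values were seen: Hhex (1.73), Lyl1 (1.26) and Vamp8 (1.17) were higher and Gas6 (-2.52) was lower in OA mice.

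At 3 h the medians of the receptors, other granule genes, cytoskeleton genes and transcription factors were 1.1, 0.87, 0.70 and 0.66, against 0.09 over all genes. At 4 h they were -0.50, -0.37, -0.49 and -0.35. The mean level of each list was above the serum array on OA replicate 1 and below it on OA replicate 2, which stands apart. For the receptors it was 4.55 and 3.05 on these OA arrays and 4.30 on the serum array. Erythroid markers had a median of 1.63 at this time, and their part was not tested. In the contrast of 3 and 4 h with 1 and 1.5 h, 18 of 18 receptors and 19 of 19 cytoskeleton genes were above 0, with medians of 1.08 and 0.58. Granule genes and transcription factors were more mixed, with 10 of 17 and 6 of 10 above 0. At an unadjusted p under 0.05, 15 receptors, 12 cytoskeleton genes, 7 granule genes and 3 transcription factors were higher, against 6.32% of genes. At that p 3 other transcription factors were lower. The median of the members in this contrast was 1.01, against 0.06 over all genes.

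**Figure D4:**
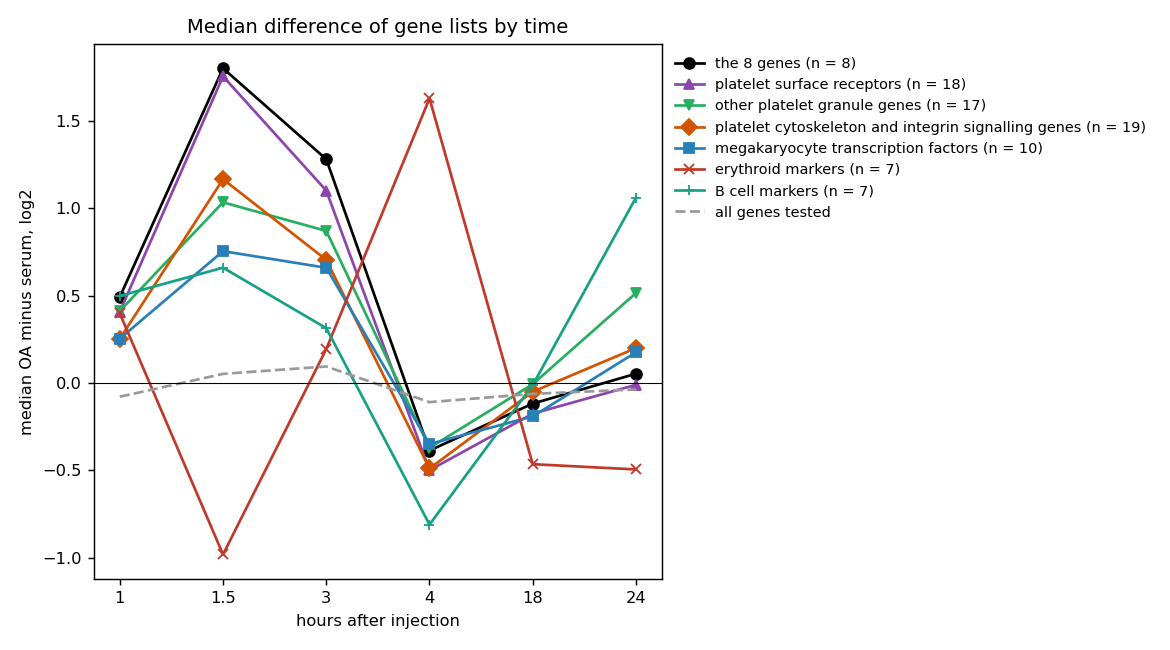
Median difference of OA minus serum in log2 for the members, each related gene list and the erythroid and B cell markers, by time in hours (evenly spaced), beside the median of all genes tested. At 1.5 h the medians are 1.80 for the members, 1.75 for the receptors, 1.17 for the cytoskeleton genes, 1.03 for the other granule genes and 0.75 for the transcription factors.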

How the data were processed

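Per the labels' protocols, blood cells of 30 mice were isolated and their RNA was labelled with Cy3. Per the file headers, Agilent Feature Extraction 10.5.1.1 made the deposited intensity values, whose processed signal is corrected for background within the array. A deposited table of the authors' values lies on a log2 scale (62927 rows, column medians 5.35 to 5.36) and followed normexp signals (r = 0.980) more closely than processed signals (0.848), so it was used only as an alternative. How that table was scaled is not stated in the labels or headers.

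Control spots and spots with an outlier mark were left out, log2 of the processed signal was taken and the 75th percentile of each array subtracted. Probes well above background on at least 3 arrays were kept (35800), and the highest-mean probe stood for a gene, which gave 25169 genes. limma 3.58.1 in R 4.3.3 fitted 12 groups (18 residual degrees of freedom), with two-sided tests, Benjamini-Hochberg adjustment over all genes and a threshold of 0.05. Steps were tested on simulated data. Correlations used 100000 permutations. The members and lists were chosen with earlier results of these data known. Of each list, the 2 genes with the smallest p at 1.5 h and the 2 with the smallest p for the mean of 6 times are named, and the 5 genes most like the members. Alternatives were other background corrections, scalings and filters, slide and replicate blocks, an intergenic covariate, the mean of a gene's probes and leaving out each array. Leaving out the 3 arrays that stand apart was added after the values were seen. The number of arrays limits the precision.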

Additional observations from a re-analysis of the deposited data

How the results depend on the processing

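Over the alternatives run, no member was called at 1, 1.5, 3, 4 or 18 h or over the mean of 6 times. At 24 h, 1 member (Sparc) was called when arrays were scaled to probes always above background, as were 26.2% of genes. Sparc was also called without OA 24 h replicate 2, at a time when the main fit called 30.1% of genes. Without serum 24 h replicate 2, which leaves 1 serum array, Sparc differed by -1.82. The second Vwf probe, which does not stand for the gene, was called at 24 h. In the contrast of 3 and 4 h with 1 and 1.5 h, Vwf was called by limma in 2 of these settings. Its adjusted p was 0.0379 when scaled to probes always above background (2.32% of genes called) and 0.0406 with the authors' values (2.36%). With intergenic signal as a covariate, 5 members were called, as were 2.93% of genes. They were Pf4, Tubb1, Vwf, F5 and Clu, with limma's adjusted p from 0.0223 to 0.0364. The Sparc difference turned to 0.10 at 1.5 h without OA 1.5 h replicate 3, and to 0.36 in that time contrast with the replicate block. Over the mean of 6 times Sparc turned to -0.0038 with normexp, -0.046 with the authors' values, -0.0042 without OA 18 h replicate 2, and -0.021 without OA 24 h replicate 2 and -0.021 without serum 24 h replicate 2, and Tubb1 turned to -0.19 with the intergenic covariate. The cause was not tested. Over all genes, 7573 calls at 24 h became 2 with the intergenic covariate, 9 with slide as a fixed block, 8 without the slide of OA arrays only, 53 without the arrays apart, 2126 with the replicate block, 4839 with the authors' values, 13117 without the filter and 4178 with detection on more arrays. The 73 calls of the time contrast ranged between 0 with the replicate block and 736 with the intergenic covariate. The 24 h median of all genes was -0.04, and 0.18 (quantile), -0.21 (normexp) or -0.55 (always-detected probes) in other scalings, and the 1.5 h median was -0.10 and -0.17 with normexp and always-detected probes. No common pairing of arrays by replicate number was seen (same-number correlations -0.53 to 0.42), but groups of 1 to 3 arrays cannot exclude it. Under the replicate block 0 members were called in any comparison. Leaving out the only serum array at 4 h gave no value for the comparisons that need it. With 1 to 3 arrays a group, small differences were not detectable, and differences of 3.09- to 4.13-fold at 1.5 h were not called either.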
